A study of Homo sapiens with 14 samples.

Results

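The genes examined were 31 named genes of cholesterol synthesis, SREBP control and cholesterol transport, out of 58440 genes counted in the series. They were chosen by name from a list, and all 31 were matched to an Ensembl gene. The list held 8 enzymes from acetyl-CoA to squalene, 10 enzymes from squalene to cholesterol, 7 genes of SREBP control and 6 genes of cholesterol transport, esterification and efflux. RNA was sequenced from mixtures of HEK-293T cells, an adherent human embryonic kidney line that carries the SV40 large T antigen, and Jurkat cells, a suspension line from a human T cell leukemia. Each sample held 1000000 cells, and the 7 conditions were 100%, 80%, 60%, 50%, 40%, 20% and 0% HEK cells, the remainder being Jurkat cells, with 2 libraries per condition and 14 in all. No treatment was given. HEK-293T cells were grown in DMEM and Jurkat cells in RPMI, both with 10% serum, and both were harvested 2 days after passage, so that line and medium cannot be told apart. The labels call the replicates technical, and each line stands for 1 culture as far as the labels say, so every SD and p-value below measures the spread between libraries.

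Cells make cholesterol from acetyl-CoA through mevalonate, the isoprenoid chain and squalene, which is folded into lanosterol and then trimmed in the endoplasmic reticulum. When sterol in that membrane is low, the escort protein SCAP carries the SREBP transcription factors to the Golgi, where a pair of proteases release the fragment that turns on the genes of synthesis and uptake; INSIG proteins hold SCAP back when sterol is plentiful. Cholesterol taken up with lipoproteins leaves the lysosome through the NPC proteins, is stored as ester or leaves the cell through ABC transporters, whose genes are classical targets of the liver X receptors.

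The libraries held from 4468822 to 28303668 gene counts, the pure Jurkat libraries being the shallowest. The summed level of 10 T cell markers was 2401 to 2833 CPM (counts per 1000000 gene counts) in pure Jurkat libraries and 3.03 to 6.35 CPM in pure HEK libraries, where CD3E, CD28, ZAP70 and LCP2 were at or under 3 counts. The summed level of 10 markers of an adherent, kidney derived line was 280 to 310 CPM in pure HEK libraries and 37.4 to 46.9 CPM in pure Jurkat libraries, where KRT18, YAP1, PAX2, LHX1, CTNNA2 and EPCAM were at or under 3 counts. CTNNA2 was also at or under 3 counts in HEK cells, so this list described the line only in part. The file names fell into a group of 6 libraries and a group of 8 whose meaning is not stated; pure HEK fell wholly in the smaller group and pure Jurkat wholly in the larger, so a difference between the pure lines and one between file groups cannot be told apart. All 31 genes passed the filter on low counts, and the lowest count of any of them in a library was 19.0, for ABCG1 in the first pure HEK library.

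The first comparison asked how the pathway differs between the pure lines relative to the rest of the mRNA. Jurkat cells held more of the early pathway. Of the 8 enzymes that lead to squalene, 7 were higher in Jurkat, among them HMGCS1 at 5.76-fold and FDFT1 at 4.98-fold, as were the sterol sensor INSIG1 at 4.64-fold and the efflux transporter ABCG1 at 13.1-fold. HEK cells held more of CYP51A1, the first enzyme after lanosterol, at 7.67-fold, and of NPC2, NSDHL, SCAP and SC5D at 1.79-fold to 2.35-fold. In all, 14 of the 31 genes were called higher in Jurkat, against 19.0% of the 15794 genes tested, and 5 were called higher in HEK, against 24.2% of genes. The 19 genes called in either direction were 61.3% of the list, where 43.2% of all genes were called. The median log2 difference (HEK minus Jurkat) was -0.92 over the 31 genes and 0.07 over all genes. CPM of the 2 HEK libraries did not overlap those of the 2 Jurkat libraries for 27 of the 31 genes, and for 74.8% of all genes. A call is an adjusted p under 0.05 in the quasi-likelihood test of edgeR, adjusted by Benjamini-Hochberg over all genes. Folds and log2 differences come from that fit, which scales libraries by TMM factors, whereas CPM are plain shares of gene counts. By mean CPM the folds lay further towards HEK. FDFT1 was 4.26-fold and ABCG1 11.2-fold higher in Jurkat by mean CPM, and CYP51A1 was 8.99-fold higher in HEK.

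**Figure D1:**
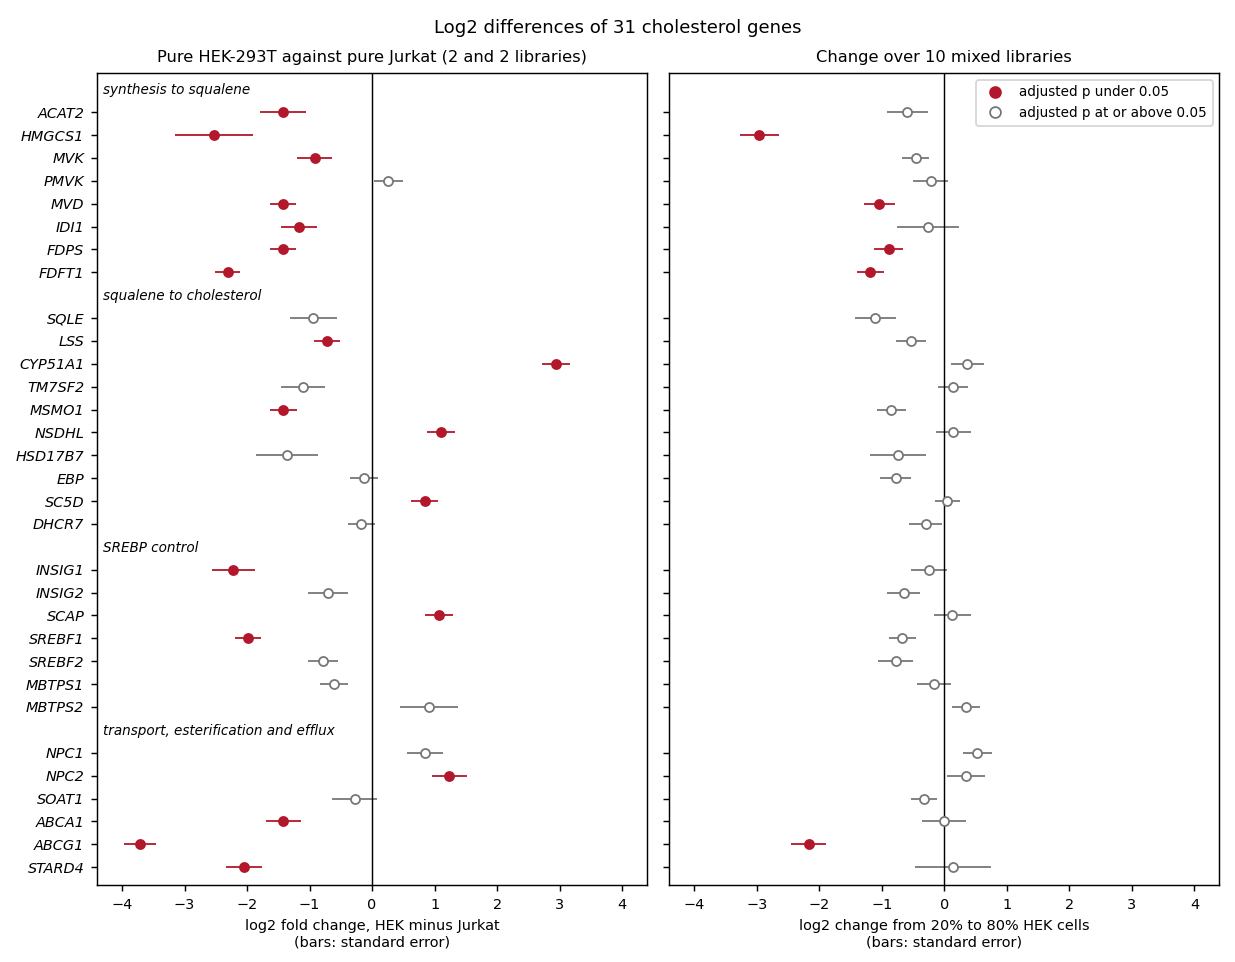
Log2 differences of the 31 genes with their standard errors, grouped by role, between pure lines (left, HEK minus Jurkat, 2 and 2 libraries) and over the 10 mixed libraries (right, change from 20% to 80% HEK cells); filled red points have an adjusted p under 0.05. In the left panel 14 filled points lie below 0 and 5 above it, and in the right panel all 5 filled points lie below 0.

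With 2 libraries a line, these calls rested on few measurements. CYP51A1, FDFT1, INSIG1, SREBF1, ABCG1 and STARD4 were the 6 genes of the 19 that stayed past the threshold whichever of the 4 pure libraries was left out. Without the first HEK library the losses were ACAT2, MVK, IDI1, FDPS, LSS, NSDHL, SC5D, SCAP, NPC2 and ABCA1. Without the second HEK library they were ACAT2, MVK, MVD, IDI1, LSS, MSMO1, NSDHL, SC5D, SCAP and ABCA1. Leaving out the first Jurkat library ended the calls of ACAT2, HMGCS1, MVK and NPC2, and leaving out the second ended those of HMGCS1, MVK, IDI1, LSS, SC5D and NPC2. The signs of all 19 held in these fits. DESeq2 ended the calls of MVK (adjusted p = 0.196), LSS (adjusted p = 0.192) and SC5D (adjusted p = 0.0664), and edgeR without a filter on low counts ended those of MVK (adjusted p = 0.0902) and LSS (adjusted p = 0.207).

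Promoter sequence is shown for a gene of each pattern, since SREBP acts together with the factors NF-Y and Sp1 at promoters of this pathway. HMGCS1 and INSIG1 were higher in Jurkat, CYP51A1 was higher in HEK, and SREBF2 was the single gene of the 27 with a window that held the sterol regulatory element letters searched. The 200 bases before the RefSeq transcription start (GRCh38.p14), read 5′ to 3′ on the gene's strand, were as follows, with matches to CCAAT (NF-Y), GGGCGG (Sp1) or TCACNCCAC (sterol regulatory element) on either strand in capitals.
HMGCS1, chr5:43313413-43313612 (minus strand): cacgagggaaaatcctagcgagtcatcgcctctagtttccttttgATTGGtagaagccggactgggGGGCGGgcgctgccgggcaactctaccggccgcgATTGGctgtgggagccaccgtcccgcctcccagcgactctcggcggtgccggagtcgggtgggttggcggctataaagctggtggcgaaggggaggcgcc
INSIG1, chr7:155297678-155297877 (plus strand): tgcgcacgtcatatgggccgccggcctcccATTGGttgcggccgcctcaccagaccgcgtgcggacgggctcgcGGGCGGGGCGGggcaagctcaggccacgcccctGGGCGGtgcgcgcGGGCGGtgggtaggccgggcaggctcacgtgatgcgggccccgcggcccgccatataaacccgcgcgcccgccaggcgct
SREBF2, chr22:41832905-41833104 (plus strand): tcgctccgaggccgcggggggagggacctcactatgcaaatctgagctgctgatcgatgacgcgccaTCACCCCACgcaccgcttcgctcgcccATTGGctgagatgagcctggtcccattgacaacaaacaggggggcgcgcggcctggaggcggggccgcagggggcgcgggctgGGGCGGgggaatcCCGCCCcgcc
CYP51A1, chr7:92134478-92134677 (minus strand): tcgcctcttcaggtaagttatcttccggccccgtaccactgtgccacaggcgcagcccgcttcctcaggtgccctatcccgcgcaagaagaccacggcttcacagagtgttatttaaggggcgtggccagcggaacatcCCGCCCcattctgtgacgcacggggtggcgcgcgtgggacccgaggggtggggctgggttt
For HMGCS1 and INSIG1, GENCODE has the gene start within the bases shown, so that part of them is transcribed in its longest model. For CYP51A1 the GENCODE gene start lies before the bases shown, so all of them are transcribed in that model. The bases before that start are not shown. HMGCS1 held CCAAT on the opposite strand 155 and 100 bases before the start, INSIG1 held them 170 bases before it, and CYP51A1 held none in its window. The RefSeq table held promoter windows of 27 of the 31 genes, 34 windows in all. In the 250 bases before the start, CCAAT was present in 20 of the 34 windows (58.8%) and in 32.0% of 35116 windows of all genes, GGGCGG in 30 of them (88.2%) and in 42.6% of all windows, and TCACNCCAC in 1 of them (2.94%) and in 0.883% of all windows. These are matches of letters, and binding was not measured.

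The enzymes that lead to squalene were ACAT2, HMGCS1, MVK, PMVK, MVD, IDI1, FDPS and FDFT1. Their median log2 difference was -1.43, and PMVK alone was not called. The calls were 87.5% of these enzymes, where 43.2% of all genes were called. HMGCS1 (chr5:43287470-43313512 in GRCh38, minus strand), which condenses acetoacetyl-CoA and acetyl-CoA and whose promoter is shown above, held 24.3 and 87.5 CPM in the pure HEK libraries and 317 and 237 CPM in the pure Jurkat libraries. Both Jurkat libraries lay above both HEK libraries, but the HEK libraries differed from each other 3.60-fold. Its log2 difference was -2.53 ± 0.63 (SE), adjusted p = 0.0275; it was -1.85 without the first HEK library and -3.71 without the second. In the mixtures HMGCS1 held 25.0 and 25.2 CPM at 80%, 44.6 and 41.0 CPM at 60%, 82.1 and 73.1 CPM at 50%, 69.6 and 58.4 CPM at 40% and 220 and 175 CPM at 20% HEK cells. The 2 libraries at 20% HEK cells stood above all other mixtures, and those at 80% lay at the level of the lower HEK library. An unnamed gene on the opposite strand of HMGCS1, ENSG00000261604, also held more in Jurkat, at 67.1 CPM against 2.77 CPM in HEK, and its part in the HMGCS1 counts was not tested because the strand setting of the counting is not stated.

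FDFT1 (chr8:11795573-11839395, plus strand) is squalene synthase, which commits the isoprenoid chain to sterols. It held 38.1 and 40.9 CPM in the pure HEK libraries and 168 and 168 CPM in the pure Jurkat libraries. Libraries of the same line differed by at most 1.07-fold. The log2 difference was -2.31 ± 0.20 (SE), adjusted p = 0.00139. Mixtures lay between the lines, with 43.6 and 54.0 CPM at 80%, 74.5 and 66.9 CPM at 60%, 59.7 and 96.8 CPM at 50%, 63.3 and 95.0 CPM at 40% and 109 and 111 CPM at 20% HEK cells.

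FDPS, farnesyl diphosphate synthase, held 93.9 and 105 CPM in the pure HEK libraries and 245 and 214 CPM in the pure Jurkat libraries. It was 2.70-fold higher in Jurkat (log2 difference -1.43 ± 0.21, adjusted p = 0.00573), and its mixtures held 87.0 and 105 CPM at 80%, 140 and 140 CPM at 60%, 113 and 177 CPM at 50%, 103 and 148 CPM at 40% and 180 and 195 CPM at 20% HEK cells. The antisense gene RUSC1-AS1, which overlaps FDPS, was also higher in Jurkat by CPM, 66.0 against 30.9, and its part was not tested. MVD, mevalonate diphosphate decarboxylase, differed by the same factor at a lower level. MVD held 13.1 and 11.7 CPM in the pure HEK libraries and 27.7 and 29.3 CPM in the pure Jurkat libraries, a log2 difference of -1.43 ± 0.21, adjusted p = 0.00607. In mixtures MVD held 9.16 and 11.1 CPM at 80%, 18.8 and 16.9 CPM at 60%, 11.5 and 21.8 CPM at 50%, 13.4 and 19.1 CPM at 40% and 22.1 and 22.3 CPM at 20% HEK cells.

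ACAT2, the cytosolic thiolase at the head of the pathway, held 23.2 and 29.6 CPM in the pure HEK libraries and 80.1 and 41.9 CPM in the pure Jurkat libraries. The groups did not overlap, but the Jurkat libraries differed 1.91-fold, and the log2 difference of -1.43 ± 0.37 had an adjusted p of 0.0295. Its mixtures held 22.7 and 29.6 CPM at 80%, 44.1 and 33.0 CPM at 60%, 27.8 and 49.4 CPM at 50%, 18.7 and 44 CPM at 40% and 48.0 and 35.4 CPM at 20% HEK cells. Both libraries at 20% lay above both at 80%, with no steady order between. The log2 change from 20% to 80% HEK cells was -0.59 ± 0.33, where additive mixing gives -0.49, and was not called. TCP1, on the opposite strand of ACAT2, held 318 CPM in HEK and 306 CPM in Jurkat. IDI1, the isomerase that makes the reactive isoprenoid unit, held 44.2 and 40.3 CPM in the pure HEK libraries and 63.0 and 99.0 CPM in the pure Jurkat libraries, a log2 difference of -1.17 ± 0.29, adjusted p = 0.0259. In mixtures IDI1 held 77.5 and 48.0 CPM at 80%, 61.2 and 40.5 CPM at 60%, 129 and 71.6 CPM at 50%, 65.7 and 53.2 CPM at 40% and 84.7 and 54.3 CPM at 20% HEK cells, and 1 library at 50% lay above both pure lines. MVK, mevalonate kinase, differed by -0.92 ± 0.28 with an adjusted p of 0.0496, and was called in none of the 4 fits with a pure library left out. PMVK, phosphomevalonate kinase, had a log2 difference of 0.26 ± 0.23, adjusted p = 0.410.

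The 10 enzymes from squalene to cholesterol did not share a direction: 2 were called higher in Jurkat, 3 higher in HEK and 5 were not called. The calls were 50.0% of these enzymes, near the 43.2% of all genes that were called. CYP51A1 (chr7:92084987-92134803, minus strand), lanosterol 14-alpha demethylase, held 60.9 and 67.8 CPM in the pure HEK libraries and 7.61 and 6.71 CPM in the pure Jurkat libraries. Every HEK library was far above both Jurkat libraries, and the libraries of a line differed by at most 1.13-fold. The Jurkat levels rest on 34.0 and 41.6 expected counts, which limits the precision of the fold. The log2 difference was 2.94 ± 0.23, adjusted p = 0.00106, the greatest excess in HEK among the 31 genes. At the 5 mixed compositions CYP51A1 held 65.3 and 62.4 CPM at 80%, 67.1 and 65.6 CPM at 60%, 77.6 and 61.9 CPM at 50%, 52.2 and 49.5 CPM at 40% and 56.5 and 42.3 CPM at 20% HEK cells, so that the mixtures lay near the HEK level down to 50% HEK cells. AKAP9, on the opposite strand, went the other way by CPM, with 444 in HEK and 702 in Jurkat.

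NSDHL, which removes a carboxyl group at carbon 4 of the sterol ring, held 19.9 and 17.3 CPM in the pure HEK libraries and 7.16 and 7.58 CPM in the pure Jurkat libraries. Its log2 difference was 1.10 ± 0.23, adjusted p = 0.0158, and its mixtures held 15.8 and 16.3 CPM at 80%, 20.0 and 21.2 CPM at 60%, 14.0 and 28.6 CPM at 50%, 12.7 and 17.9 CPM at 40% and 15.1 and 15.2 CPM at 20% HEK cells. SC5D, the desaturase near the end of the pathway, was 1.79-fold higher in HEK (adjusted p = 0.0335). MSMO1, the oxidase that acts on the same carbon 4 methyl groups before NSDHL, went in the other direction. It held 17.0 and 15.1 CPM in the pure HEK libraries and 39.8 and 34.0 CPM in the pure Jurkat libraries, a log2 difference of -1.42 ± 0.22, adjusted p = 0.00664. MSMO1 in mixtures held 12.1 and 14.0 CPM at 80%, 21.2 and 20.1 CPM at 60%, 15.7 and 27.2 CPM at 50%, 15.6 and 23.5 CPM at 40% and 24.8 and 23.9 CPM at 20% HEK cells. LSS, the cyclase that makes lanosterol, was 1.64-fold higher in Jurkat (adjusted p = 0.0462). By TPM, which divides by transcript length, LSS overlapped between the lines, with means of 4.77 in HEK and 4.38 in Jurkat.

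Among the enzymes not called was SQLE, squalene epoxidase, a slow step of the pathway. SQLE held 141 and 129 CPM in the pure HEK libraries and 302 and 143 CPM in the pure Jurkat libraries, and since the Jurkat libraries differed 2.12-fold its log2 difference of -0.94 ± 0.38 had an adjusted p of 0.102. TM7SF2, a sterol reductase, had a log2 difference of -1.10 ± 0.35 (adjusted p = 0.0538), and VPS51, which overlaps it on the same strand, held 29.2 CPM in HEK and 27.5 CPM in Jurkat. HSD17B7, a ketosteroid reductase, had a log2 difference of -1.36 ± 0.49 (adjusted p = 0.0756); its libraries differed up to 2.6-fold within a condition, and the assignment of reads between it and the copy HSD17B7P2, which reached 27.8 CPM in a mixture, is uncertain. EBP and DHCR7, the isomerase and the reductase of the last steps, had log2 differences of -0.13 ± 0.23 and -0.17 ± 0.22. By mean CPM, without TMM factors, both were slightly higher in HEK and overlapped between lines. EBP held 61.7 CPM in HEK and 58.0 CPM in Jurkat, and DHCR7 29.8 and 28.6 CPM.

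In the SREBP control group, INSIG1 and SREBF1 were higher in Jurkat, SCAP was higher in HEK, and INSIG2, SREBF2, MBTPS1 and MBTPS2 were not called. The calls were 42.9% of the group, close to the 43.2% of all genes. INSIG1 (chr7:155297776-155310235, plus strand), which retains SCAP in the endoplasmic reticulum and is itself a target of SREBP, held 217 and 202 CPM in the pure HEK libraries and 590 and 1067 CPM in the pure Jurkat libraries. The Jurkat libraries differed 1.81-fold, and the lower of them was still above both HEK libraries. The log2 difference was -2.22 ± 0.34, adjusted p = 0.00693. Mixtures of INSIG1 held 304 and 361 CPM at 80%, 258 and 266 CPM at 60%, 342 and 315 CPM at 50%, 404 and 280 CPM at 40% and 307 and 389 CPM at 20% HEK cells, and the libraries at 80% HEK cells stood above both pure HEK libraries. INSIG2, its paralog, held 8.57 and 7.39 CPM in the pure HEK libraries and 8.28 and 13.5 CPM in the pure Jurkat libraries, and the groups overlapped. Its log2 difference was -0.70 ± 0.32, adjusted p = 0.136, and in mixtures it held 8.44 and 7.43 CPM at 80%, 11.0 and 8.50 CPM at 60%, 7.91 and 11.3 CPM at 50%, 10.7 and 9.20 CPM at 40% and 8.75 and 15.8 CPM at 20% HEK cells.

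SREBF1 encodes SREBP-1, which acts mainly on fatty acid genes, and SREBF2 encodes SREBP-2, which acts mainly on cholesterol genes. SREBF1 (chr17:17810399-17837002, minus strand) held 34.4 and 33.0 CPM in the pure HEK libraries and 122 and 106 CPM in the pure Jurkat libraries, a log2 difference of -1.98 ± 0.21, adjusted p = 0.00223. The groups were well separated, and mixtures held 39.3 and 36.8 CPM at 80%, 45.3 and 42.7 CPM at 60%, 33.9 and 46.3 CPM at 50%, 40.5 and 63.3 CPM at 40% and 59.6 and 55.2 CPM at 20% HEK cells. SREBF2, whose promoter letters are shown above, held 16.9 and 18.2 CPM in the pure HEK libraries and 22.3 and 29.5 CPM in the pure Jurkat libraries. Its log2 difference was -0.79 ± 0.24 with an adjusted p of 0.0508, just short of the threshold, and its mixtures held 12.2 and 18.4 CPM at 80%, 24.1 and 18.3 CPM at 60%, 18.8 and 34.6 CPM at 50%, 19.4 and 24.4 CPM at 40% and 26.6 and 25.0 CPM at 20% HEK cells. Counts of genes do not show how much of either factor is cleaved.

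SCAP, the escort of SREBP, held 36.8 and 35.6 CPM in the pure HEK libraries and 13.7 and 15.8 CPM in the pure Jurkat libraries. Its log2 difference was 1.07 ± 0.22, adjusted p = 0.0147, and mixtures held 25.7 and 33.3 CPM at 80%, 40.7 and 41.5 CPM at 60%, 24.4 and 49.5 CPM at 50%, 26.1 and 41.4 CPM at 40% and 28.2 and 26.2 CPM at 20% HEK cells. MBTPS1 and MBTPS2 encode the proteases that cut SREBP in the Golgi, and had log2 differences of -0.61 ± 0.22 (adjusted p = 0.0730) and 0.91 ± 0.47 (adjusted p = 0.172). MBTPS2 differed 2.76-fold between the Jurkat libraries, and the gene YY2, which lies within it on the same strand, had nearly the same levels as MBTPS2, 21.8 CPM in HEK and 8.97 CPM in Jurkat, so that its counts are uncertain.

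**Figure D2:**
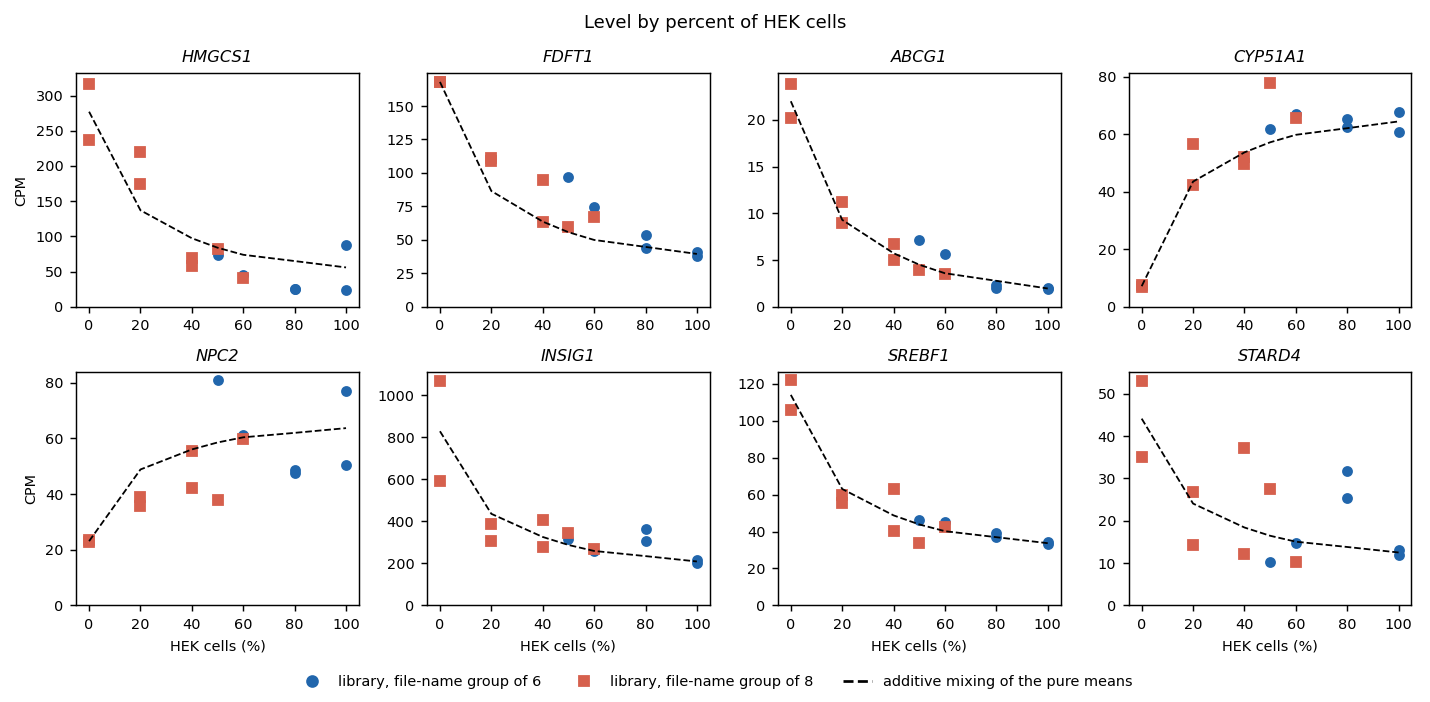
CPM of 8 genes in each of the 14 libraries against the percent of HEK cells, with the file-name group of each library by colour and shape and a dashed line for additive mixing of the mean pure levels. FDFT1 and ABCG1 are highest in the 2 pure Jurkat libraries, HMGCS1 is higher at 20% than at 80% HEK cells but spans 24.3 to 87.5 CPM in pure HEK, CYP51A1 is lowest in the 2 pure Jurkat libraries, and STARD4 at 80% HEK cells lies above the line.

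In the group of transport, esterification and efflux, ABCA1, ABCG1 and STARD4 were higher in Jurkat and NPC2 was higher in HEK. The calls were 66.7% of the group, where 43.2% of all genes were called. ABCG1 (chr21:42199689-42297244, plus strand), a transporter that moves cholesterol out to lipoprotein particles, held 2.01 and 1.91 CPM in the pure HEK libraries and 23.9 and 20.2 CPM in the pure Jurkat libraries. The log2 difference of -3.71 ± 0.25 was the largest of the 31 genes (adjusted p = 8.27e-04). Mixtures of ABCG1 held 1.98 and 2.32 CPM at 80%, 5.67 and 3.46 CPM at 60%, 3.99 and 7.13 CPM at 50%, 5.02 and 6.72 CPM at 40% and 9.02 and 11.2 CPM at 20% HEK cells; the first library at 80% lay between the pure HEK libraries and the other 9 lay above them. ABCA1, the transporter that loads cholesterol onto lipid-poor apolipoproteins, held 4.13 and 3.23 CPM in the pure HEK libraries and 8.73 and 8.06 CPM in the pure Jurkat libraries, a log2 difference of -1.42 ± 0.28, adjusted p = 0.0132. ABCA1 in mixtures held 2.51 and 4.16 CPM at 80%, 2.66 and 2.94 CPM at 60%, 3.22 and 2.44 CPM at 50%, 3.86 and 2.27 CPM at 40% and 3.08 and 2.99 CPM at 20% HEK cells, with no order by composition.

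STARD4, a soluble carrier of sterol between membranes, held 13.0 and 12.0 CPM in the pure HEK libraries and 35.1 and 53.0 CPM in the pure Jurkat libraries. The log2 difference was -2.05 ± 0.29, adjusted p = 0.00519. Its mixtures held 25.3 and 31.8 CPM at 80%, 14.8 and 10.2 CPM at 60%, 27.4 and 10.2 CPM at 50%, 37.2 and 12.1 CPM at 40% and 14.2 and 26.7 CPM at 20% HEK cells, and pairs at 50% and 40% HEK cells differed 2.68-fold and 3.08-fold. The antisense gene STARD4-AS1 held 18.4 CPM in Jurkat and 5.51 CPM in HEK, and its part in the STARD4 counts was not tested.

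NPC1 and NPC2 act in series, NPC2 lifting cholesterol from the lysosome's interior to NPC1 in its membrane. NPC2 held 77.0 and 50.4 CPM in the pure HEK libraries and 22.8 and 23.4 CPM in the pure Jurkat libraries, a log2 difference of 1.23 ± 0.28, adjusted p = 0.0201. NPC2 in mixtures held 47.5 and 48.6 CPM at 80%, 61.3 and 59.8 CPM at 60%, 38.0 and 81.0 CPM at 50%, 42.2 and 55.4 CPM at 40% and 35.9 and 38.9 CPM at 20% HEK cells. NPC1 held 16.2 and 13.3 CPM in the pure HEK libraries and 5.63 and 8.25 CPM in the pure Jurkat libraries; its log2 difference of 0.85 ± 0.29 had an adjusted p of 0.0664, and mixtures held 16.7 and 16.8 CPM at 80%, 17.6 and 14.7 CPM at 60%, 12.4 and 16.7 CPM at 50%, 8.40 and 17.7 CPM at 40% and 11.3 and 11.5 CPM at 20% HEK cells. SOAT1, which esterifies cholesterol for storage, had a log2 difference of -0.28 ± 0.36 (adjusted p = 0.565), and its groups overlapped.

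Levels were ordered within each line by TPM, which divides by transcript length; since cDNA was primed from the poly(A) tail, the length scaling is approximate. In Jurkat, INSIG1 led at 384 and 764 TPM, followed without overlap by FDPS at 293 and 309 TPM, then HMGCS1 at 100 and 130 TPM, which overlapped FDFT1. In HEK, FDPS led at 138 and 146 TPM, followed without overlap by INSIG1 at 128 and 134 TPM, NPC2 at 84.1 and 103 TPM and EBP at 63.1 and 76.7 TPM. CYP51A1 ranked 12 of 31 in HEK, at a mean of 19.9 TPM, and 29 of 31 in Jurkat, at a mean of 2.22 TPM. ABCA1 was the lowest in both lines, at mean levels of 0.340 TPM in HEK and 0.850 TPM in Jurkat. From rank 9 to rank 16 in Jurkat every gene overlapped the next in its TPM, so neighbours in the order ACAT2, MBTPS1, IDI1, NPC2, MVD, TM7SF2, MSMO1 and PMVK cannot be told apart.

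Summed over the 18 synthesis enzymes, the pathway took 734 ± 43.7 CPM in HEK (SD, n = 2; 703 and 765 CPM) and 1367 ± 163 CPM in Jurkat (SD, n = 2; 1482 and 1252 CPM). Jurkat thus gave the enzymes a 1.86-fold greater share of mRNA, and the libraries of the lines did not overlap. With 2 libraries a line an exact permutation test cannot go below 0.33 (two-sided), and no test was made. HMGCS1, FDPS, SQLE and FDFT1 made up the largest parts of the Jurkat sum. Mixtures at 20% HEK cells held 1206 and 1133 CPM and those at 80% held 628 and 647 CPM, below both pure HEK libraries. Between these ends the sums had no steady order, with 878 and 805 CPM at 60%, 828 and 1051 CPM at 50% and 693 and 864 CPM at 40% HEK cells. The first library at 40% also lay below both pure HEK libraries.

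The second comparison asked whether the genes follow composition in the 10 mixed libraries, which the first comparison did not use. HMGCS1, ABCG1, FDFT1, MVD and FDPS fell as HEK cells rose from 20% to 80%, and no gene of the list was called as rising. The 5 calls were 16.1% of the list, where 5.08% of 17242 genes fell and 0.528% rose. HMGCS1 changed by -2.96 ± 0.31 on the log2 scale (adjusted p = 5.82e-05), ABCG1 by -2.17 ± 0.28 (adjusted p = 3.39e-04) and FDFT1 by -1.18 ± 0.21 (adjusted p = 0.00419). MVD changed by -1.04 ± 0.25 (adjusted p = 0.0281) and FDPS by -0.89 ± 0.23 (adjusted p = 0.0381). All 5 were also called higher in pure Jurkat. At an unadjusted edgeR p under 0.05 there were 13 of the 31 genes, where 3090 of the 17242 genes tested passed. Of the 13, 12 fell and NPC1, at 0.53 ± 0.23, rose. DESeq2 called 9 genes, all falling, the additions being SQLE, MSMO1, EBP and SREBF1. It called 1448 of 37504 genes where edgeR called 967 of 17242.

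The range of the mixtures limits what can be seen of genes high in HEK. The HEK share of RNA, fitted over genes outside the list, was 62.9% and 64.0% at 20% HEK cells and 95.7% and 96.2% at 80%. With these shares a gene expressed in HEK alone gains 0.59 on the log2 scale by additive mixing, whereas a gene expressed in Jurkat alone loses 3.22. CYP51A1 changed by 0.37 ± 0.26 where mixing of its pure levels gives 0.51, NPC2 by 0.35 ± 0.30 where it gives 0.34, and NSDHL by 0.14 ± 0.28 where it gives 0.32. FDFT1 changed by -1.18 where mixing gives -0.96, ABCG1 by -2.17 where it gives -1.77, and SREBF1 by -0.67 where it gives -0.78. HMGCS1 fell further than its mean pure levels give, -2.96 against -1.09, as did SQLE, -1.10 ± 0.32 against -0.27, and EBP, -0.78 ± 0.25 against 0.03. INSIG1 fell less, -0.24 ± 0.29 against -0.90. The expected value of HMGCS1 rests on the mean of pure HEK libraries of 24.3 and 87.5 CPM, 3.60-fold apart. The size of its excess therefore depends on which of them is taken, and it was not computed for each alone. STARD4 changed by 0.14 ± 0.61 where mixing gives -0.81.

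Composition and file group overlapped in the mixtures too, since all 4 libraries at 20% and 40% HEK cells lay in the group of 8 and both at 80% in the group of 6. With file group as a covariate 3 genes were called: HMGCS1 at -3.05, ABCG1 at -2.75 and FDFT1 at -1.45. The mixed libraries of the group of 8 span 20% to 60% HEK cells and those of the group of 6 span 50% to 80%. Slopes within a group are still scaled to 20% to 80%, so they reach beyond the compositions fitted. Within the 6 mixed libraries of the group of 8, ABCG1 was called at -2.46 (adjusted p = 0.0329), while HMGCS1 at -3.23 had an adjusted p of 0.0752 and FDFT1 at -1.33 one of 0.243. Within the 4 mixed libraries of the group of 6, HMGCS1 at -2.55 and ABCG1 at -3.19 were called, and STARD4 was called in the direction opposite to the pure lines, at 3.33 (adjusted p = 0.0246). In these 4 libraries STARD4 held 10.2 to 31.8 CPM, a narrower range than that scaled slope implies. FDFT1 at -1.54 was not called there either (adjusted p = 0.0912). MVD and FDPS kept their sign but passed the threshold in none of these fits, and each lost its call when either library at 80% or either at 20% HEK cells was left out, FDPS also without either library at 60% or the second at 40%. With the HEK share of RNA in place of the percent of HEK cells, MVD (adjusted p = 0.0747) and FDPS (adjusted p = 0.0508) were not called and SQLE was (-1.13, adjusted p = 0.0289). FDPS also lost its call without a filter on low counts (adjusted p = 0.0827).

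Departures from additive mixing were small for most of the list. The mean log2 ratio of observed to expected CPM over the 10 libraries had a median of 0.08 over the 31 genes and -0.02 over other genes. The median absolute departure was 0.09 for the list and 0.15 for 12810 other genes. ABCA1, at -0.57 ± 0.32 (SD, n = 10), and SQLE, at -0.50 ± 0.45, were the 2 genes beyond 0.5, where 8.24% of the other genes were. ABCA1 was below its expected level in 9 of 10 libraries and SQLE in 8 of 10. With 1 pure library left out as reference the mean of ABCA1 ran from -0.71 to -0.45 and that of SQLE from -0.60 to -0.38, so neither stayed beyond 0.5 throughout, and SQLE was at -0.47 with the HEK share of RNA taken from the spike-ins. SQLE lay at 73.7 to 141 CPM in the 8 libraries from 80% to 40% HEK cells, 7 of them below the lower pure HEK library, and at 170 and 195 CPM at 20%. HMGCS1 had a mean departure of -0.47 ± 0.68 and ran from 1.39 below at 80% HEK cells to 0.67 above at 20%; with the first HEK library alone as reference the mean was 0.04, and with the second alone it was -0.88. MBTPS2 was above its expected level in all 10 libraries, by 0.16 ± 0.15. All departures share the error of the same 4 pure libraries, and no test was made.

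**Figure D3:**
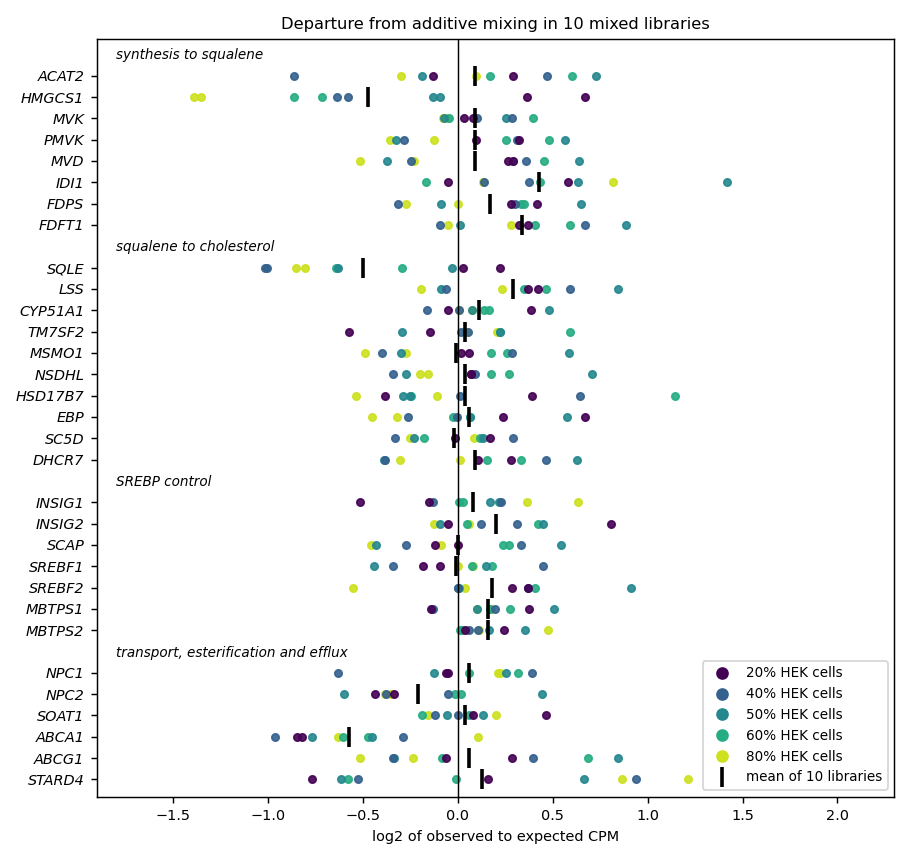
Log2 ratio of observed to expected CPM for each of the 31 genes in each of the 10 mixed libraries, coloured by percent of HEK cells, with the mean of the 10 libraries as a black bar. Most means lie within 0.25 of 0, ABCA1 and SQLE have the lowest means, and HMGCS1 runs from negative values at 80% HEK cells to positive values at 20%.

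The third comparison placed the genes on a scale per spike-in. A fixed volume of ERCC spike-in RNA was added to the mRNA of each sample of 1000000 cells, so counts per ERCC count stand for the level per cell as far as RNA was recovered equally; in bulk libraries, fewer cells of a type and less RNA per cell cannot be told apart beyond what the mixing fixed. Pure HEK libraries held 147 and 97.3 gene counts per ERCC count and pure Jurkat libraries 12.1 and 12.3. The ratio varied more within some mixtures, with 46.6 and 123 at 80% HEK cells, 2.65-fold apart, and 29.9 and 56.1 at 60%, which limits its reading as a level per cell. The median gene was 12.2-fold higher in HEK on this scale (log2 3.61), and 92.5% of the 15794 genes were called higher in HEK. Of the list 29 of 31 genes were called higher in HEK, a share close to that background, with a median of 2.63. HMGCS1 and ABCG1 were the 2 genes not called: HMGCS1 held 3.59 and 8.52 counts per 1000 ERCC counts in HEK and 3.83 and 2.92 in Jurkat, and ABCG1 held 0.296 and 0.186 in HEK and 0.289 and 0.248 in Jurkat. Both overlapped between lines, with log2 differences of 0.85 ± 0.51 (adjusted p = 0.0986) and -0.19 ± 0.61 (adjusted p = 0.759).

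Relative to the median of 3.61, the values restate the differences of the first comparison. CYP51A1 stood 2.86 above the median gene and was 88.5-fold higher in HEK per spike-in count. NPC2 stood 1.24 above it at 28.7-fold, NSDHL 1.06 above it at 25.4-fold and SCAP 1.01 above it at 24.6-fold. INSIG1 stood at -2.26 relative to the median and was still 2.54-fold higher in HEK, FDFT1 at -2.38 and 2.34-fold, SREBF1 at -2.03 and 2.98-fold, and STARD4 at -2.10 and 2.84-fold. Per ERCC count the 18 enzymes together were 5.35-fold higher in HEK, against 10.0-fold for all gene counts. The authors reported a lower ratio of HEK to Jurkat mRNA content from the spike-ins, and the reason was not tested. At 20% HEK cells the spike-in ratio gives a HEK share of RNA of 71.5%, above the fitted 62.9% and 64.0%. At 80% it gives 97.6%, above the fitted 95.7% and 96.2%. Folds per spike-in count are therefore uncertain as folds per cell. Dividing by the ERCC totals moves all genes by nearly the same amount, so the sign of a gene on this scale follows from its difference in mRNA share and that common shift, and is no separate result about the gene.

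**Figure D4:**
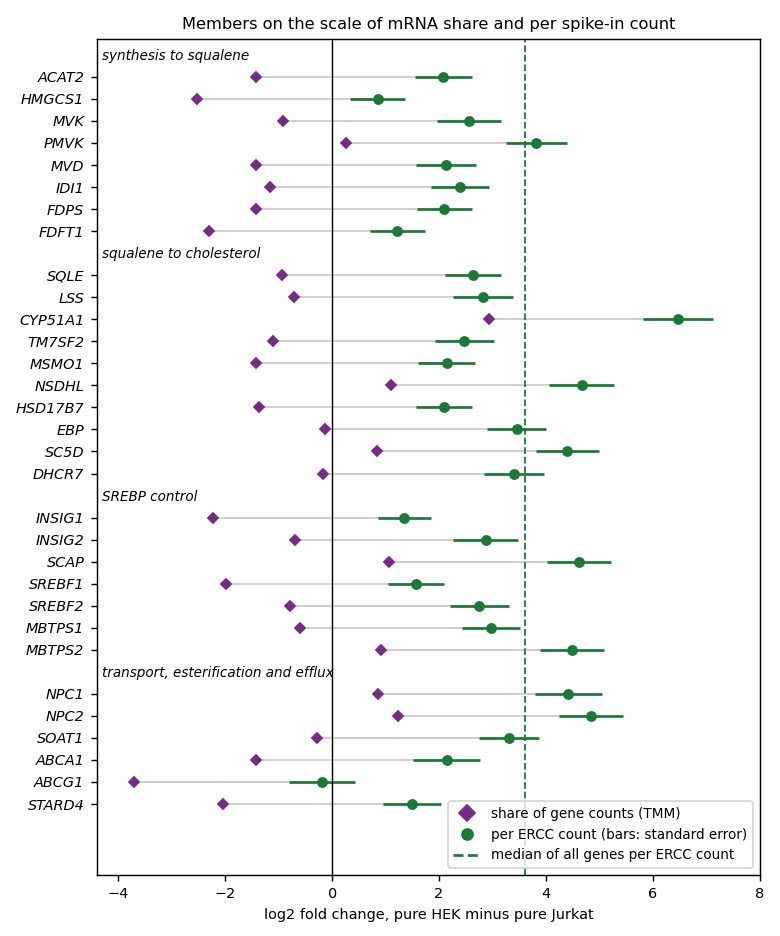
Log2 fold changes of the 31 genes between pure HEK and pure Jurkat, relative to other genes (purple diamonds) and per ERCC count (green circles with standard errors). A dashed line marks the median of all genes per ERCC count, 3.61. ABCG1 is the single green circle below 0, and CYP51A1 lies farthest to the right on both scales.

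The 2 libraries of a condition did not differ alike. At 50% HEK cells, where the libraries came from different file groups, 15 of the 31 genes differed by over 1.5-fold, 13 of them higher in the second library, and 46.4% of all genes differed by as much. The pair at 60% HEK cells also came from different file groups and held 3 such genes. At 40% HEK cells and in pure Jurkat 10 genes did in each, where 36.3% and 31.2% of all genes did. The other pairs held 2 to 4 such genes. The pooled SD between libraries was 0.158 on the log2 scale for CYP51A1, the lowest of the list, and 0.669 for STARD4, the highest, with a median of 0.322. STARD4, HSD17B7, HMGCS1 and ACAT2 had SDs above 0.5.

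Genes next to the pathway, 40 in number, were listed by role, and 36 had enough counts for the test. In the pure lines 9 of the 36 (25.0%) were called higher in HEK, against 24.2% of all genes, and 5 (13.9%) higher in Jurkat, against 19.0%. Both shares lay near or below the background, and the median log2 difference was 0.06, close to the 0.07 of all genes. Of the 8 fatty acid targets of SREBP, 3 were called higher in HEK and 3 higher in Jurkat. FADS2, a fatty acid desaturase, differed by -3.02 ± 0.21 (adjusted p = 8.27e-04), whereas ELOVL6, an elongase, differed by 2.58 ± 0.24 (adjusted p = 0.00171) and ACSS2, which makes acetyl-CoA from acetate, by 2.09 ± 0.52 (adjusted p = 0.0268). Of the 10 genes on branches of the mevalonate pathway, 3 were called higher in HEK and 1 higher in Jurkat. The liver X receptor genes NR1H2 and NR1H3 differed by -0.00 ± 0.30 and 0.09 ± 0.35 (adjusted p = 0.998 and 0.846), and their target MYLIP by 0.30 ± 0.21 (adjusted p = 0.294). Among sterol carriers GRAMD1B differed by 2.55 ± 0.35 (adjusted p = 0.00501), and among oxysterol enzymes CYP46A1, which makes 24-hydroxycholesterol, differed by -2.59 ± 0.41 (adjusted p = 0.00739).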

How the data were processed

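mRNA was captured with oligo(dT) beads, ERCC spike-ins were added, and strand-specific libraries were read as single ends. Per the labels the authors aligned reads with STAR 2.6.1b to GRCh38 and quantified them with RSEM 1.3.1; the annotation and the strand setting of the counting are not given in the sources used here. The authors deposited RSEM expected counts per gene without normalization, and TPM whose total includes the spike-ins. Reads that match several genes are divided between them, so genes with copies or overlaps are uncertain. The series table was not used here.

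Names and positions came from GENCODE release 44 by identifier without version (57754 of 58440 genes matched). Expected counts were rounded and tested with edgeR 4.0.16 (TMM, filterByExpr, quasi-likelihood test, Benjamini-Hochberg at 0.05 over all genes). The mixed libraries were fitted with a slope on percent HEK cells, and the spike-in fit used ERCC totals as library sizes without TMM. CPM were taken over genes without spike-ins. Counts at or under 3 were treated as the floor, and depth of 4468822 to 28303668 gene counts sets counting precision only. Expected CPM of a mixture was the mean pure level weighted by the HEK share of RNA, fitted by least squares on log2(CPM + 1). Alternatives were RLE factors, no filter, DESeq2 1.42.0, Bonferroni, file group, other sample sets and each library left out. Scripts were tested on simulated data. Values were given for every library of genes called in the pure lines with an absolute log2 fold change of at least 1 and of 4 gene pairs, and for other genes of the pathway at least 2. Promoter windows came from RefSeq (GRCh38.p14). The genes and lists were chosen with earlier results of these data known.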

Additional observations from a re-analysis of the deposited data

How the results depend on the processing

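In the pure lines the main fit called 19 of the 31 genes, and 6827 of 15794 genes tested. RLE factors gave 21 of the 31 (6801 of 15794) and no filter on low counts 22 (8902 of 31686). DESeq2 gave 17 (5819 of 31686) and a fit to all 14 libraries 24 (7985 of 19129). With Bonferroni adjustment edgeR called 0 of the 31 and 65 of 15794 genes. At an unadjusted edgeR p under 0.05 there were 24 of the 31, and 8325 of 15794 genes. DESeq2 with Benjamini-Hochberg adjustment called 17 of the 31. Leaving out 1 pure library gave 9 to 18 of the 31, 3131 to 6227 of all genes and 6 to 13 of the 40 genes next to the pathway. The log2 difference of EBP, not called, turned to 0.03 without a filter and ran from -0.28 to 0.03 with a library left out, and that of SOAT1 from -0.66 to 0.26. Over the mixtures DESeq2 called 9 genes of the list (1448 of all genes), the HEK share of RNA 4 (1038), no filter 4 (977), the file group covariate 3 (512 of all genes), the mixed libraries of the group of 8 alone 1 (203), those of the group of 6 alone 3 (599) and all 14 libraries 16 (4015); leaving out 1 mixed library gave 3 to 7 (572 to 1155). The smaller sets hold fewer libraries; the cause of the other changes was not tested. Genes not called over the mixtures turned sign as follows. With the file group covariate IDI1 was 0.05, NSDHL -0.18, SC5D -0.12, SCAP -0.06, MBTPS1 0.18 and ABCA1 0.39. In the group of 8 PMVK was 0.13, IDI1 0.06, SC5D -0.13, MBTPS1 0.13 and STARD4 -0.44. In the group of 6 IDI1 was 0.16, TM7SF2 -0.18, NSDHL -1.12, INSIG1 0.76, SCAP -1.07, MBTPS1 0.41, NPC2 -1.0, SOAT1 0.23 and ABCA1 1.31. Slopes within a file group are scaled to 20% to 80% HEK cells, a range that neither group covers. With all 14 libraries PMVK was 0.02, TM7SF2 -0.48 and STARD4 -0.86, and under RLE factors and DESeq2 ABCA1 was 0.00. With a mixed library left out TM7SF2 ran from -0.06 to 0.29, SC5D from -0.04 to 0.14, SCAP from -0.04 to 0.37, MBTPS1 from -0.28 to 0.01, ABCA1 from -0.33 to 0.13 and STARD4 from -0.20 to 0.45. Per spike-in count 93.5% of the list and 95.8% of all genes tested were called in either direction, so calls on that scale are not particular to the list. The log2 ratio of the summed enzymes lay between -1.04 and -0.77 in all settings tried. No paired analysis was possible because the labels give conditions no shared replicate numbers. With 2 libraries a line, differences below about the spread between libraries cannot be shown, and expected counts of 19.0 to 49.0 limit ABCA1 and ABCG1 in the pure HEK libraries. Low counts in the pure Jurkat libraries limit others, among them CYP51A1 (34.0 and 41.6), NSDHL (32.0 and 47.0), NPC1 (25.2 and 51.2), MBTPS2 (23.0 and 88.0) and INSIG2 (37.0 and 84.0).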
